A study of Mus musculus with 17 samples.

Results

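A set of 40 genes of DNA replication, mitosis and cytokinesis was followed in RNA-seq of the mouse cortex. Its members were the rows of the deposited table whose symbol belongs to a fixed list of cell cycle genes, and all 40 symbols were found among the 55453 distinct symbols. The list held 11 replication genes, 11 cyclins, kinases and checkpoint genes, 12 genes of chromosomes, spindle and kinetochore, and 6 genes of cytokinesis. Values were TPM, the share of all transcripts after scaling by transcript length, so levels can be compared between genes and the sequencing depth behind them is unknown.

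The mice were C57BL/6J males, and the tissue was bulk cortex. Mice hemizygous for an Hnrnph2 knockout (KO) or for the R206W or P209L substitution were compared with wild-type littermates of their own line. Hnrnph2 is an X-linked gene of an RNA-binding protein, and the KO allele carries an indel that introduces a premature stop codon. At 8 weeks the groups were KO control, KO, R206W control and R206W, with 3 mice each, and at 3 weeks they were P209L control with 2 mice and P209L with 3 mice. Since the P209L line alone was sampled at 3 weeks, age and line cannot be told apart. P-values measure the spread between these mice.

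Cells that divide load the MCM helicase onto origins, copy their DNA behind the PCNA clamp and then pass through mitosis under cyclin B and Cdk1, with a spindle checkpoint that delays the separation of chromosomes. Transcripts of the mitotic genes accumulate late in each cycle and are low in cells that have left it. Neurons of the postnatal cortex no longer divide, and oligodendrocyte precursors are the main dividing cells of this tissue, beside microglia and endothelial cells. In bulk RNA, fewer cells of a type and less RNA per cell cannot be told apart.

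Markers of cortical excitatory neurons, such as Camk2a and Slc17a7, were present, with 8 of 8 above 1 TPM. Hnrnph2 was at 23.1 ± 1.59 TPM (SD, n = 3) in KO mice and at 122 ± 35.7 TPM (SD, n = 3) in their controls. KO control 1 stood apart from the other mice, with 20.1% of its TPM from mitochondrially encoded genes against 10.7% to 15.4%, and it had the lowest value of the 17 mice for 12 of the 40 members. P209L control 2 had the highest value for 7 members. Its 7 ependymal and choroid plexus markers summed to 1773 TPM, against 5.37 to 42.9 TPM in the other 16 mice.

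The cell cycle genes were expressed at low levels in the cortex, and the 3 highest were replication genes. Mean TPM over the 17 mice ran from 0.204 for Bub1, a kinase of the spindle checkpoint, to 45.1 for Pcna, the sliding clamp of DNA polymerases, with a median of 1.07 over the 40 members. Only 5 members exceeded 5 TPM and 3 exceeded 10 TPM, these being Pcna, E2f1 and Mcm7. No member was listed at 0 in any mouse. A test required a mean of at least 1 TPM over all mice, which 21 members reached and 19 did not. By role, the test could be made for 11 of 11 replication genes, 4 of 11 cyclins, kinases and checkpoint genes, 3 of 12 genes of chromosomes and spindle, and 3 of 6 cytokinesis genes. The spread between mice of a group was a median of 21.5% of the mean for tested members and 28.8% for the rest.

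Pcna reached from 35.5 TPM in P209L control 2 to 52.3 TPM in R206W control 3. Reads of this gene can be shared with its processed copy Pcna-ps2, which was itself listed at 6.95 TPM, so its level is uncertain. E2f1, a transcription factor of S-phase genes, averaged 10.3 TPM, and Mcm7, a subunit of the replicative helicase, averaged 10.1 TPM. The other helicase subunits followed at 4.23 TPM for Mcm4, 3.53 for Mcm6, 2.93 for Mcm5, 1.76 for Mcm2 and 1.51 for Mcm3. The 6 subunits form a single ring, yet their listed levels differed by several-fold. Mcm7 shares 7.25% of its exonic length with Ap4m1 on the opposite strand, listed at 15.4 TPM. The strand setting of the counting is not given in the sources used here, so the level of Mcm7 is uncertain. Ccne2, a cyclin of S-phase entry, was at 4.83 TPM, Tyms, which makes thymidylate, at 1.95 TPM, and Rrm2, a subunit of ribonucleotide reductase, at 1.33 TPM. The same limit holds for Ccne2, which shares 17.4% of its exonic length with Ints8 on the opposite strand, listed at 16.6 TPM.

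Many genes of mitosis were close to 1 TPM or below it, while Bub1b averaged 1.98 TPM and Ccna2 1.94 TPM. Mki67, the gene of the Ki-67 antigen by which dividing cells are stained, averaged 0.305 ± 0.0803 TPM (SD, n = 12) at 8 weeks and 0.276 ± 0.108 TPM (SD, n = 5) at 3 weeks. Top2a, a topoisomerase that untangles chromosomes, was at 0.69 ± 0.208 TPM (SD, n = 12) and 0.778 ± 0.62 TPM (SD, n = 5), and Cdk1, the mitotic kinase, at 0.712 ± 0.282 TPM (SD, n = 12) and 0.998 ± 0.461 TPM (SD, n = 5). In each of these the ages overlapped. The 3-week spread of Top2a came from P209L control 2 at 1.82 TPM beside P209L control 1 at 0.28 TPM, which were the highest and the lowest values of all mice. Of the mitotic regulators, Ccnb1 and Ccnb2, the B-type cyclins, averaged 1.29 and 0.962 TPM, Plk1, a kinase of mitotic entry, 1.02 TPM, and the Aurora kinases Aurka and Aurkb 0.717 and 0.269 TPM. Cdc20 and Ube2c, which act with the anaphase-promoting complex, averaged 0.834 and 0.424 TPM. Of the spindle and kinetochore genes, Nuf2 was at 1.14 TPM and Cdca8, of the passenger complex, at 1.13 TPM. Tpx2, Kif11, Hmmr and Nusap1, which act on spindle microtubules, were at 0.899, 0.722, 0.680 and 0.301 TPM, and Cenpf at 0.264 TPM. None of these separated the ages.

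Of the cytokinesis genes, Racgap1 and Anln were higher than any mitotic kinase or kinetochore gene, at 6.78 and 6.53 TPM. Kif23, the kinesin that pairs with Racgap1 in the central spindle, followed at 2.21 TPM, Prc1, a bundler of midzone microtubules, at 0.914 TPM and Ect2, an activator of RhoA, at 0.485 TPM. Anln encodes anillin, a scaffold of the contractile ring, and its transcript is also known from myelinating oligodendrocytes.

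**Figure D1:**
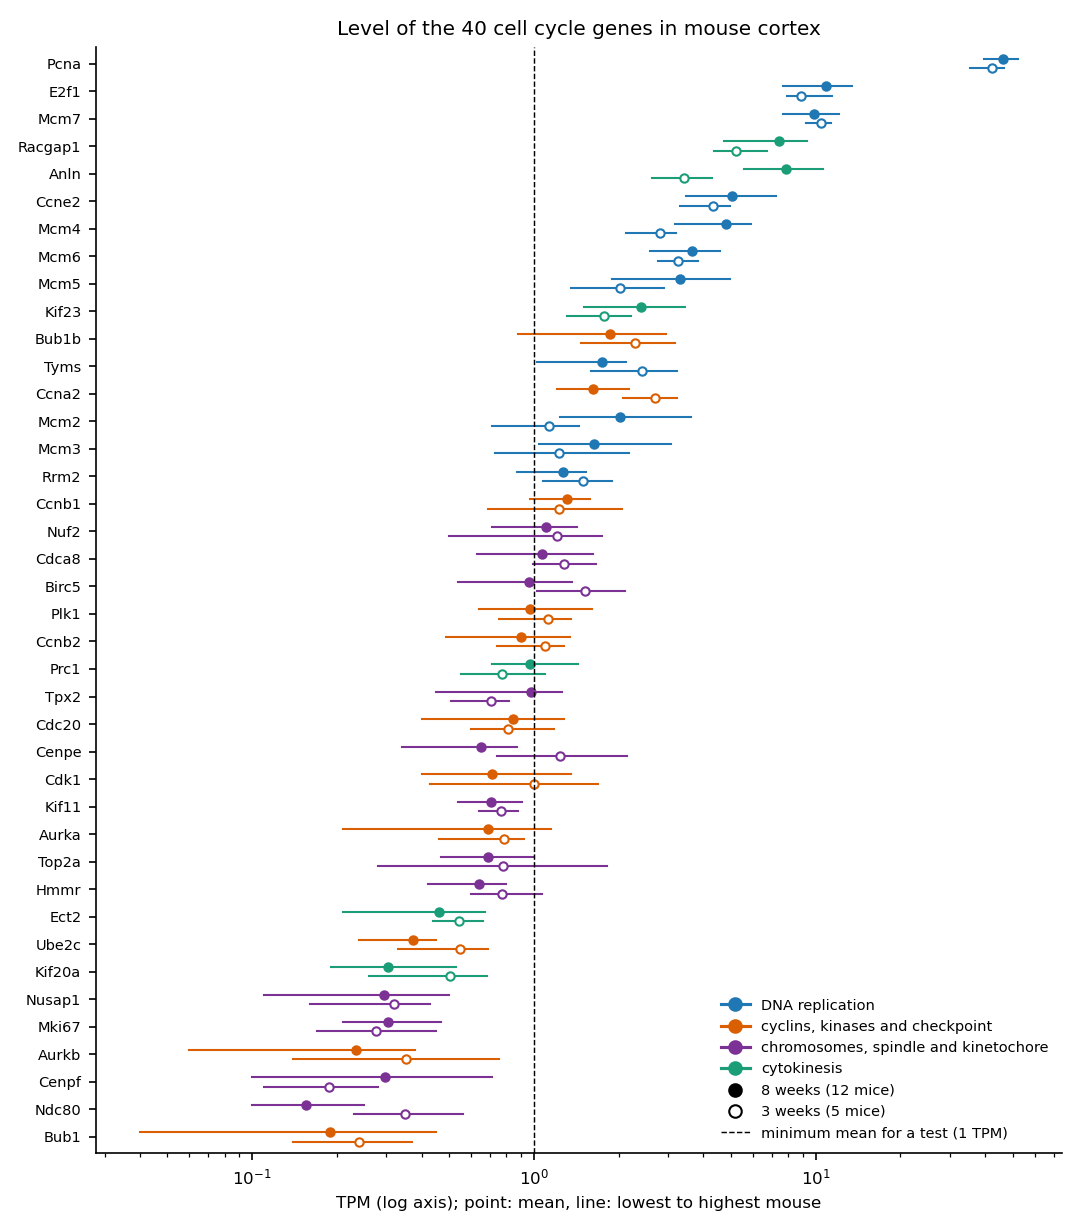
Level of each of the 40 members in TPM on a log axis, ordered by the mean over 17 mice; points are means and lines run from the lowest to the highest mouse, filled for the 12 mice of 8 weeks and open for the 5 mice of 3 weeks, coloured by role. Members left of the dashed line at 1 TPM by their mean over all mice were not tested, and Anln is the member whose lines for both ages do not meet.

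Summed over the 40 members, KO mice reached 120.8 to 132.0 TPM and their controls 105.3 to 130.3 TPM. R206W mice reached 127.3 to 130.4 TPM and their controls 129.0 to 140.6 TPM. At 3 weeks the sums were 106.8 to 125.2 TPM in P209L mice and 112.3 to 113.6 TPM in their controls. Mutants and controls overlapped in each line, and the lowest sum of all belonged to KO control 1. Pcna made up the largest piece of each sum, and without it the range over all mice was 60.99 TPM in KO control 1 to 88.33 TPM in R206W control 1.

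Promoter sequences were read beside the levels because late cell cycle genes share short promoter elements. The CHR (TTTGAA) and the CCAAT box (CCAAT) are known from genes of mitosis, and E2F elements (here TTTCCCGC, TTTCGCGC, TTTGCCGC or TTTGGCGC) from genes of replication. RefSeq promoters of GRCm38.p6, 250 bases before to 50 bases after a start site, were at hand for 34 members in 37 windows and were searched on both strands, with overlapping matches counted apart. Windows were not used for Aurkb, Ccna2, Ccne2, Kif20a, Mcm4 and Tpx2. The stretches below are the 160 bases before the start. Cdk1 and Top2a are examples of late genes, and Mcm5, Mcm2 and Bub1b are among the members the later comparisons turn on. Capitals mark motif letters.
Cdk1, chr10:69352913-69353072, minus strand: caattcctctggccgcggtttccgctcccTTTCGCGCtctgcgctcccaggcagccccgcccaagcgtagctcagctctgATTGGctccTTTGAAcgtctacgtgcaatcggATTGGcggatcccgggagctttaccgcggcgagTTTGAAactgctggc
Top2a, chr11:99024190-99024349, minus strand: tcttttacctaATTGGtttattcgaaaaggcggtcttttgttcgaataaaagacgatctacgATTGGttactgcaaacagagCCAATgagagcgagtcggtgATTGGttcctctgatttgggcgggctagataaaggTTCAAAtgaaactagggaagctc
Mcm5, chr8:75109349-75109508, plus strand: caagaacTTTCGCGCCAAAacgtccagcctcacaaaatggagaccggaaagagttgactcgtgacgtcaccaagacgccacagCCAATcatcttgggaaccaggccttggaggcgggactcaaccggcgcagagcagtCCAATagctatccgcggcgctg
Mcm2, chr6:88898781-88898940, minus strand: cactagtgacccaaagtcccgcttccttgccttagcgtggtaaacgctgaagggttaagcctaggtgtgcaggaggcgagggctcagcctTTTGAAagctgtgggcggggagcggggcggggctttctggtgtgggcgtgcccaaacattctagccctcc
Bub1b, chr2:118598051-118598210, plus strand: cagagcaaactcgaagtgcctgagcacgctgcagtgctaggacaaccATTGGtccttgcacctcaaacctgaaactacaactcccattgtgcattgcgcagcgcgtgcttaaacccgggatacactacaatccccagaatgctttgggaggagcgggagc
Cdk1 held 2 CHR, 2 CCAAT and 1 E2F match in its stretch, and Top2a held 1 CHR and 4 CCAAT matches. Mcm5 had 2 E2F matches that overlap each other and 2 CCAAT matches, without a CHR. Mcm2 had 1 CHR here and a CCAAT box 175 bases before its start. Bub1b had 1 CCAAT box here and a CHR 40 bases after its start. Over the windows of all members, 59.5% held a CHR, 81.1% a CCAAT box and 13.5% an E2F match, beside 17.9%, 37.4% and 2.26% of all 32851 windows in the table. By role, the CHR was in 1 of 10 windows of replication genes, 77.8% of those of cyclins, kinases and checkpoint genes, 63.6% of those of chromosome and spindle genes, and 100% of the 7 windows of cytokinesis genes. These 7 come from 5 genes, as Ect2 and Prc1 each have 2 overlapping windows that hold the same matches. E2F matches were in 4 of the 10 replication windows and 11.1% of the cyclin and kinase windows. The windows of the other roles had 0 matches to these letters. A match describes the sequence and was not tested for binding.

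**Figure D2:**
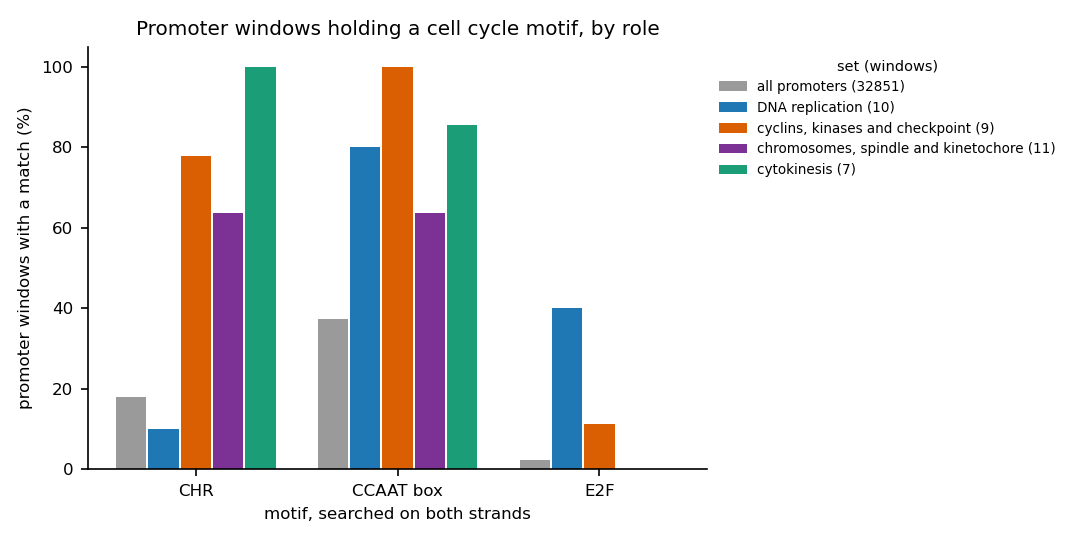
Share of promoter windows, in percent, that hold at least 1 match of a CHR, a CCAAT box or an E2F element on either strand, for all 32851 RefSeq windows (grey) and for the members by role, with the number of windows in the legend. The CHR is in 1 of 10 replication windows and all 7 cytokinesis windows, which come from 5 genes, and E2F matches are in 4 of 10 replication windows.

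To see whether loss or substitution of hnRNPH2 altered these genes, each mutant group was set against its own controls. No tested member passed an adjusted p of 0.05 in any line by limma. In KO cortex 0 of 21 passed, with 0.00615% of all genes tested passing, in R206W cortex 0 of 21, with 0.0369%, and in P209L cortex 0 of 21, with 0.0984%. By direction, 0.0799% of all genes passed as higher in P209L cortex and 0.0184% as lower. An unadjusted p under 0.05 was found for 1 member in each line, beside 4.08%, 2.19% and 7.46% of all genes. The median change on the log2(TPM + 1) scale was 0.0621 over the members and 0.0636 over all genes tested in KO, -0.0275 and 0.00959 in R206W, and -0.0414 and 0.0163 in P209L. A fit without a filter, which took in all 40 members, called 0 of them in each line, again with 1 at an unadjusted p under 0.05, beside 0.00589%, 0.0236% and 0.153% of the 33969 genes in that fit. The bounds of the 95% intervals of single members lay as far from 0 as 0.891 in KO, 0.736 in R206W and 0.894 in P209L on the log2 scale. For Pcna, the member with the narrowest interval in KO, it ran from -0.22 to 0.27.

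**Figure D3:**
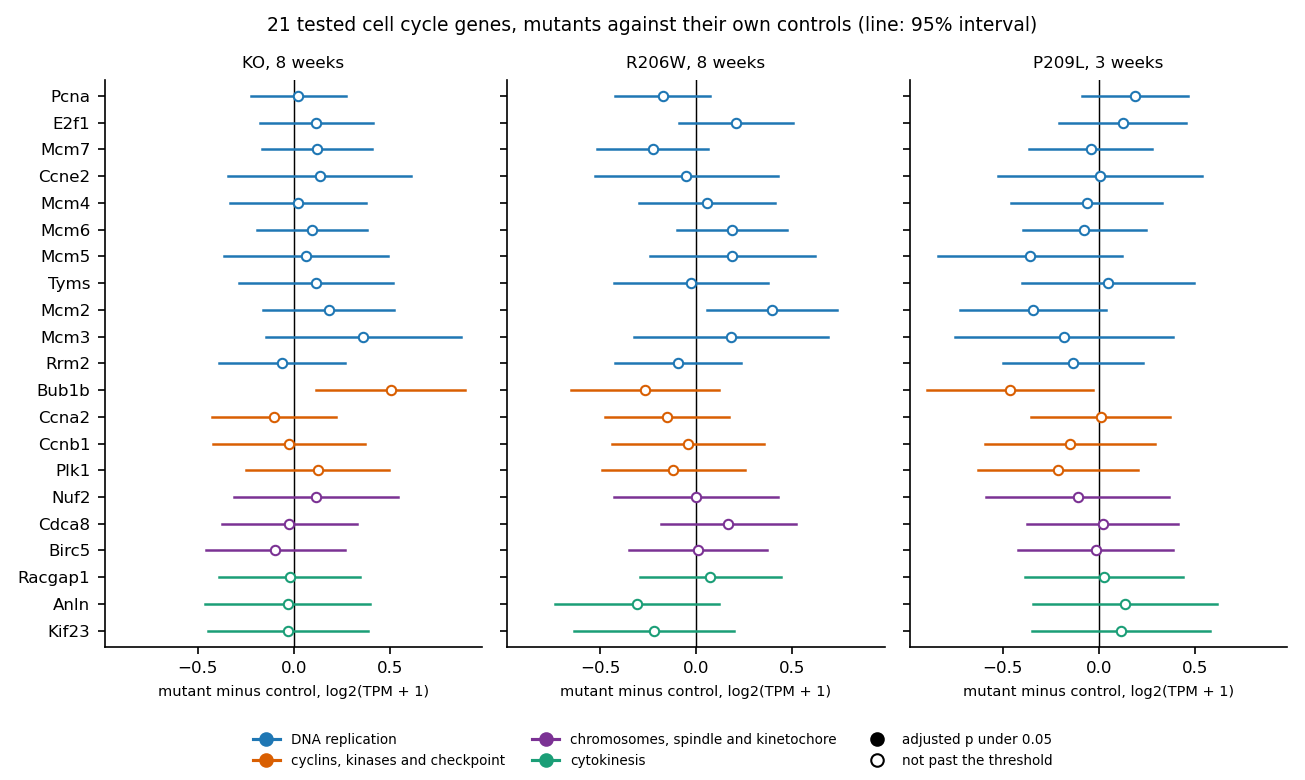
Difference between mutants and their own controls in log2(TPM + 1) for the 21 tested members, with 95% intervals, in KO and R206W mice of 8 weeks and P209L mice of 3 weeks. All points are open, as 0 members passed an adjusted p of 0.05, and the intervals of Bub1b in KO and P209L and of Mcm2 in R206W leave out 0.

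Bub1b, a kinase-like protein that holds back chromosome separation until all kinetochores are attached, was the member with the smallest unadjusted p in both the KO and the P209L line. It was at 2.95, 1.5 and 2.33 TPM in KO mice and at 1.19, 1.80 and 0.88 TPM in their controls. In P209L mice it was at 1.81, 1.47 and 2.29 TPM, with 2.65 and 3.18 TPM in their controls. KO 2 lay below KO control 2, so the KO groups overlapped, whereas all P209L mice were below both of their controls. On the log2 scale Bub1b differed by 0.50 in KO (SE 0.182, adjusted p = 0.999) and by -0.46 in P209L (SE 0.204, adjusted p = 0.626). In R206W mice Bub1b was at 1.81, 1.82 and 1.38 TPM against 2.40, 2.28 and 1.95 TPM in controls. These groups did not overlap, and the change was -0.27 (adjusted p = 1). The exact permutation p was 0.2 in KO and 0.2 in P209L, the latter the smallest that 3 mice against 2 allow.

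The 8-week controls were also compared with each other. All R206W controls were above all KO controls for Bub1b, by 0.50 on the log2 scale, which did not pass (adjusted p = 0.784). For that comparison 0 of 21 members passed, beside 0.0% of all genes, and 1 had an unadjusted p under 0.05, beside 3.12%. Groups did not overlap for 2 of 21, Bub1b as higher and Ccnb1 as lower, beside 9.07% of all genes (8.43% higher). The difference between the P209L and KO effects on Bub1b was -0.97 (SE 0.273) with an adjusted p = 0.353, and that between the KO and R206W effects 0.77 (adjusted p = 1). Members past the threshold numbered 0 of 21 for each of the 3 differences between effects, beside 0.0492% of all genes for P209L against KO, 0.0307% for KO against R206W and 0.0% for P209L against R206W. At an unadjusted p under 0.05 they numbered 2, 1 and 1, beside 7.98%, 2.29% and 3.98% of all genes, and were Bub1b or Mcm2 in each.

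Mcm2, a subunit of the replicative helicase, was the member with the smallest unadjusted p in R206W cortex. R206W mice had 2.10, 3.61 and 2.51 TPM and their controls 2.12, 1.68 and 1.64 TPM. R206W 1 fell just below R206W control 1, so the groups overlapped. On the log2 scale this was 0.39 (SE 0.160, adjusted p = 1, exact permutation p = 0.2). In P209L mice Mcm2 was at 0.95, 0.71 and 1.12 TPM, all below the 1.41 and 1.45 TPM of their controls, which is -0.34 on the log2 scale (adjusted p = 0.734). The difference between these effects was -0.74 (adjusted p = 1).

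Groups that did not overlap were few. Their number was 0 of 21 members in KO, against 6.25% of all genes (5.43% higher, 0.824% lower), and 3 in R206W (14.3%), against 16.2% (8.09% higher, 8.11% lower). These were E2f1, higher in R206W, and Mcm7 and Bub1b, lower. In P209L 2 members did not overlap (9.52%), against 24.9% of all genes (14.2% higher, 10.7% lower), and both Mcm2 and Bub1b were lower. Of the 19 members too low for the test, groups did not overlap for 2 in KO (Top2a and Ndc80, higher), 1 in R206W (Cenpf, lower) and 1 in P209L (Aurka, lower), or 10.5%, 5.26% and 5.26%. Of the 4204 genes with means in the same range, 9.56%, 11% and 18.5% did not overlap. As an example chosen after its values were seen, Top2a was at 1.00, 0.99 and 0.72 TPM in KO mice and at 0.47, 0.47 and 0.50 TPM in their controls. In the fit without a filter the log2 change was 0.36 with an unadjusted p = 0.119.

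Age was compared in controls and in mutants apart, which share no mouse. Among controls, 2 mice of 3 weeks were set against 6 of 8 weeks, and 4 of 21 members (19.0%) passed an adjusted p of 0.05, beside 36.1% of all genes tested (11.3% higher, 24.8% lower). Ccna2 and Bub1b were higher at 3 weeks, and Mcm4 and Anln were lower. Among mutants, 3 P209L mice were set against 6 KO and R206W mice, and 6 of 21 members (28.6%) passed, beside 45.9% of all genes (13.9% higher, 32.1% lower). Ccna2 was higher, and Mcm2, Mcm4, Mcm5, Racgap1 and Anln were lower. In this comparison the P209L substitution is on the 3-week side only, so genotype cannot be told apart from age either. The 3 members that passed in both were Ccna2, Mcm4 and Anln, each in the same direction. An unadjusted p under 0.05 was found for 7 members in controls and 9 in mutants, beside 46.0% and 53.7% of all genes. Groups did not overlap for 5 of 21 members (23.8%) in controls, against 38.2% of all genes, and for 5 (23.8%) in mutants, against 40.2%.

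TPM of most genes was slightly lower at 3 weeks, which bears on how these directions are read. The median change over all genes was -0.121 in controls and -0.155 in mutants on the log2 scale, and close to 0 after scaling with median-of-ratios size factors. Over the members the median was -0.0155 and -0.132, and with size factors 0.0782 and -0.0274, so that its sign in controls depended on the scaling. With quantile normalization it was 0.0750 in controls and 0.0337 in mutants, so the sign in mutants did too. With size factors 3 members were higher and 3 lower in controls, beside 21.5% and 22.6% of all genes, and 3 were higher and 5 lower in mutants, beside 26% and 25.4%. Quantile normalization gave 4 higher and 2 lower in controls, beside 22.5% and 21.9% of all genes, and 3 higher and 4 lower in mutants, beside 25.6% and 25.4%. Anln, Mcm4 and Ccna2 kept their direction and their call in both comparisons under each of these scalings. A fit of all 40 members without a filter called 4 in controls and 5 in mutants, beside 16.1% and 21.8% of the 33969 genes in that fit, many of which are near 0 TPM.

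**Figure D4:**
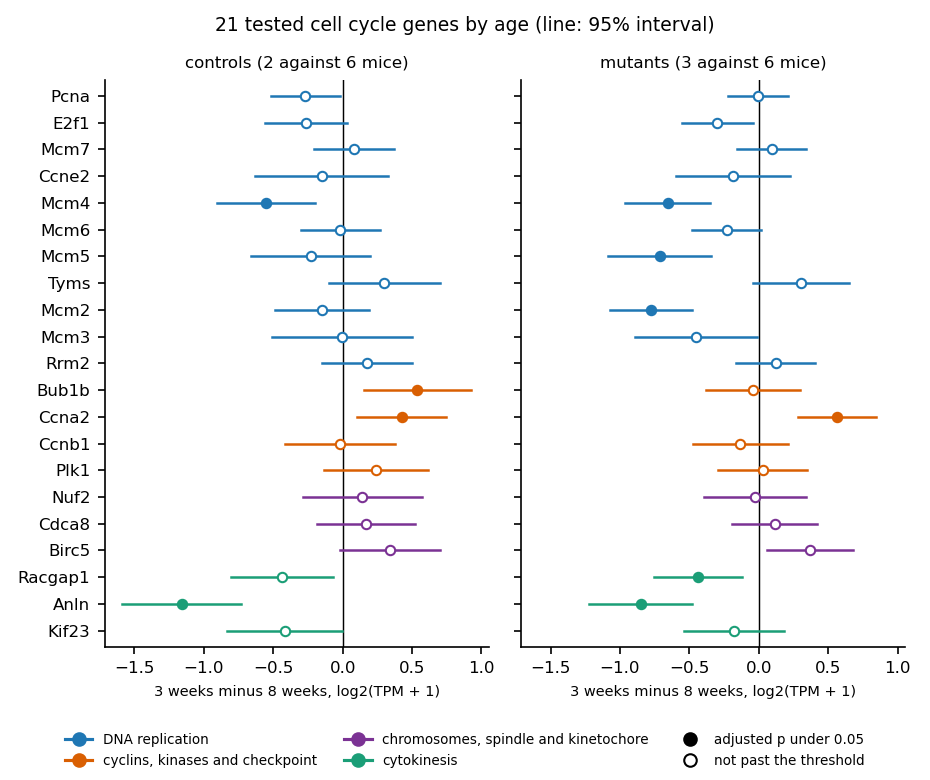
Difference between 3 and 8 weeks in log2(TPM + 1) for the 21 tested members, with 95% intervals, in controls (2 against 6 mice) and in mutants (3 against 6 mice); filled points passed an adjusted p of 0.05. Filled points number 4 in controls and 6 in mutants, and Ccna2, Mcm4 and Anln are filled in both.

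Anln (ENSMUSG00000036777.8, GRCm38 chromosome 9, 22332012 to 22389188, minus strand) had the largest change between the ages on the log2(TPM + 1) scale, though in mutants the ratio of mean TPM was further from 1 for Mcm2, at 0.396, than for Anln, at 0.491. It was at 2.63 and 3.70 TPM in P209L controls and at 4.28, 3.55 and 2.90 TPM in P209L mice. Controls of 8 weeks ran from 5.71 over a median of 8.30 to 10.67 TPM, and mutants of 8 weeks from 5.58 over 7.49 to 8.72 TPM. All 5 mice of 3 weeks were thus below all 12 mice of 8 weeks. This held for 1 of the 21 tested members in this direction and 0 in the other, against 10.2% and 6.49% of all tested genes. Over all 40 members it likewise held for Anln alone. The log2 change was -1.16 (SE 0.201, adjusted p = 0.000602) in controls and -0.85 (SE 0.174, adjusted p = 0.00124) in mutants. The exact permutation p of 0.0714 for 2 mice against 6 and of 0.0238 for 3 against 6 were the smallest these designs allow. Anln passed under all 31 alternatives in either comparison.

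Because Anln is also made by myelinating oligodendrocytes, their markers were read beside it. The 12 mature oligodendrocyte genes summed to 4377 and 6538 TPM in the P209L controls and to 2828 to 3966 TPM in controls of 8 weeks. In controls 7 of the 12 were higher at 3 weeks and 0 lower, so that the sum was on the other side from Anln. Among mutants, P209L mice summed to 2631 to 3745 TPM and mice of 8 weeks to 3097 to 4300 TPM, and 0 of the 12 were higher and 4 lower. Oligodendrocyte precursor markers overlapped between the ages, with 95.3 to 164.0 TPM at 3 weeks and 98.44 to 171.9 TPM at 8 weeks. The part of these cells in the level of Anln was not tested.

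Mcm4, a helicase subunit (ENSMUSG00000022673.5, chromosome 16, 15623897 to 15637400, minus strand), was lower at 3 weeks by 0.56 (SE 0.166, adjusted p = 0.0172) in controls and by 0.66 (SE 0.144, adjusted p = 0.00196) in mutants. It was at 2.72 and 3.05 TPM in P209L controls, 2.13, 2.91 and 3.19 TPM in P209L mice, 3.16 to 5.92 TPM in controls of 8 weeks and 4.17 to 5.51 TPM in mutants of 8 weeks. The value of 3.16 TPM was that of KO control 1, and without that mouse all 8-week values lay above 4 TPM. Mcm5 (ENSMUSG00000005410.6, chromosome 8, 75109569 to 75128439, plus strand) and Mcm2 (ENSMUSG00000002870.8, chromosome 6, 88883474 to 88898780, minus strand) passed in mutants. For Mcm5, P209L mice had 1.36, 1.68 and 2.13 TPM and 8-week mutants 2.18 to 4.95 TPM, a log2 change of -0.71 (SE 0.174, adjusted p = 0.00400). For Mcm2 they had 0.95, 0.71 and 1.12 TPM against 1.75 to 3.61 TPM, a log2 change of -0.78 (SE 0.139, adjusted p = 0.000477). In controls the changes of Mcm5 and Mcm2 were -0.23 and -0.15, with an adjusted p = 0.392 and 0.491.

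The remaining helicase subunits did not pass in either comparison. Mcm7 had a change of 0.08 in controls and 0.09 in mutants, Mcm6 of -0.02 and -0.23, and Mcm3 of -0.0038 and -0.46, the last with an adjusted p = 0.0823. With size factors Mcm7 passed in mutants as higher, with a change of 0.26 and an adjusted p = 0.0176. Summed over the 6 subunits, mice of 3 weeks had 17.76 to 23.34 TPM and mice of 8 weeks 17.56 to 28.79 TPM, the lowest of the latter being KO control 1.

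Ccna2, the cyclin A of S phase and G2 (ENSMUSG00000027715.9, chromosome 3, 36564865 to 36572150, minus strand), was the member higher at 3 weeks in both comparisons. P209L controls had 2.44 and 2.90 TPM and P209L mice 2.08, 2.88 and 3.21 TPM, against 1.21 to 2.18 TPM in controls and 1.33 to 1.70 TPM in mutants of 8 weeks. The change was 0.42 (SE 0.152, adjusted p = 0.0400) in controls and 0.57 (SE 0.132, adjusted p = 0.00292) in mutants, and the groups did not overlap within either. The call in controls was lost in 9 of 30 alternatives, with an adjusted p from 0.00327 to 0.269 over the 30, whereas that in mutants held in all 30. Exons of Ccna2 share 510 bases, 12.5% of its exonic length, with Exosc9 on the opposite strand, whose mean of 43.0 TPM is far above that of Ccna2. The strand setting of the counting is not given in the sources used here, so the level of Ccna2 is uncertain.

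Bub1b (ENSMUSG00000040084.9, chromosome 2, 118598211 to 118641591, plus strand) was higher at 3 weeks in controls by 0.54 (SE 0.182, adjusted p = 0.0312), at 2.65 and 3.18 TPM against 0.88 to 2.40 TPM. In mutants its change was -0.04 with an adjusted p = 0.847. The comparison in controls rested on the low KO controls, as it was 0.29 with an adjusted p = 0.290 when R206W controls alone stood for 8 weeks. Its call was lost in 8 of 30 alternatives. Racgap1, a GTPase-activating protein of the cleavage furrow (ENSMUSG00000023015.14, chromosome 15, 99620496 to 99651656, minus strand), had P209L values of 4.35, 4.80 and 6.71 TPM against 6.23 to 9.35 TPM in 8-week mutants, which overlapped. Its change was -0.44 (SE 0.150, adjusted p = 0.0261) in mutants, lost in 6 of 31 alternatives, and -0.44 with an adjusted p = 0.0587 in controls, where 6 of 31 alternatives passed.

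**Figure D5:**
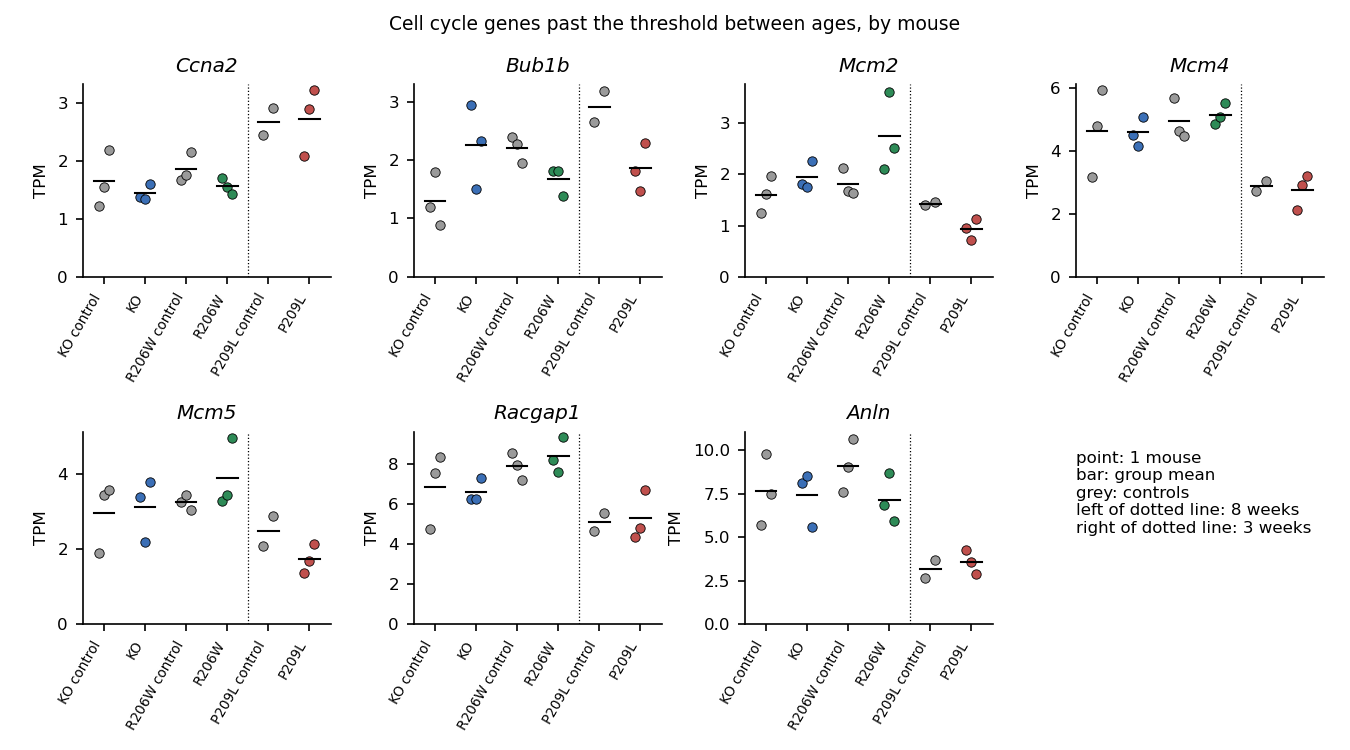
TPM of the 7 members that passed an adjusted p of 0.05 in either age comparison, with a point for each mouse and a bar at the group mean; grey points are controls, and groups right of the dotted line are 3 weeks old. Anln lies at 2.63 to 4.28 TPM at 3 weeks and 5.58 to 10.67 TPM at 8 weeks, while Bub1b is high in P209L controls but not in P209L mice.

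The remaining mitotic genes went in both directions. Mean TPM at 3 weeks was below that at 8 weeks for Tpx2 (0.704 against 0.981), Prc1 (0.774 against 0.972), Cenpf (0.188 against 0.296) and Kif23 (1.77 against 2.40). Birc5, the survivin subunit of the chromosomal passenger complex, was at 1.03 to 2.10 TPM at 3 weeks and 0.54 to 1.37 TPM at 8 weeks, with changes of 0.34 (adjusted p = 0.127) and 0.37 (adjusted p = 0.0510). With size factors it passed in both, with an adjusted p = 0.0306 and 0.00744. In the fit without a filter, 15 of the 19 members below 1 TPM had a positive change in controls and 13 in mutants. The share of positive changes among other genes of this range is not given here, so these counts have no background. Summed over the 19, P209L controls had 10.45 and 14.68 TPM, beside 7.67 to 11.51 TPM in controls of 8 weeks. P209L mice had 10.52, 10.57 and 14.04 TPM, beside 8.96 to 12.07 TPM in mutants of 8 weeks. The fit called 2 of the 19 in controls and 0 in mutants, beside 10.9% and 15.9% of the 4204 genes with means in this range. In controls it called Ndc80, a kinetochore subunit that binds microtubules, and Kif20a, a kinesin of cytokinesis, as higher at 3 weeks. Ndc80 was at 0.23 and 0.56 TPM in P209L controls and 0.10 to 0.22 TPM in controls of 8 weeks, or 0.29 on the log2 scale (adjusted p = 0.0117). Kif20a was at 0.45 and 0.68 TPM against 0.19 to 0.40 TPM, with an adjusted p = 0.0494, and 29.3% of its exonic length is shared with Cdc23 on the opposite strand. In mutants Ndc80 had a change of 0.17 with an adjusted p = 0.0543. Cenpe, a kinesin of the kinetochore, had a 3-week range of 0.74 to 2.15 TPM, beside 0.34 to 0.87 TPM at 8 weeks.

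Other genes of the pathway were read from 4 lists of 140 genes, of which 88 could be tested. None passed in a mutant line by limma, beside the same shares of all genes as above. At an unadjusted p under 0.05, 3 of the 88 genes were found in KO cortex, 2 in R206W and 6 in P209L, beside 4.08%, 2.19% and 7.46% of all genes. With size factors or quantile normalization 1 inhibitor passed in P209L mice, as lower. The share of all genes passing in that line under these scalings is not given here, so this call has no background. Between ages 20 of 88 passed in controls (7 higher, 13 lower) and 32 of 88 in mutants (15 higher, 17 lower), beside 36.1% and 45.9% of all genes. With size factors these became 34 (22 higher, 12 lower) and 38 (26 higher, 12 lower), beside 44.1% and 51.4% of all genes. The direction of the counts therefore rested on the scaling.

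Of the regulators of G1, 10 of 22 passed in controls (2 higher, 8 lower) and 11 of 22 in mutants (3 higher, 8 lower), again beside 36.1% and 45.9% of all genes. With size factors these were 11 (3 higher, 8 lower) and 10 (5 higher, 5 lower), and Rb1, Ccnd3 and Lin52, named after their values were seen, lost their call in mutants, as they did with quantile normalization. The D-type cyclins Ccnd1 and Ccnd2, which drive cells from G1 toward S phase, were lower at 3 weeks, Ccnd1 by 0.75 (12.4 against 21.7 TPM, adjusted p = 0.00523) in controls and by 0.96 (9.99 against 20.3 TPM, adjusted p = 0.000245) in mutants. Ccnd2 was lower by 0.77 (adjusted p = 0.00302) and 0.50 (adjusted p = 0.0122). E2f3 and Tfdp2, partners in E2F dimers, were lower in both, E2f3 by 0.62 and 0.54, Tfdp2 by 0.59 and 0.49. Rb1, the retinoblastoma pocket protein, was lower in controls by 0.42 (adjusted p = 0.00494), while E2f5 was higher in mutants by 0.40 (adjusted p = 0.00165). The call of Rb1 was lost with quantile normalization (adjusted p = 0.0736), and the others kept direction and call under the 3 scalings tried.

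Inhibitors of the cycle passed in 3 of 12 in controls (1 higher, 2 lower) and 6 of 12 in mutants (1 higher, 5 lower). Of all genes, 36.1% passed in controls (11.3% higher, 24.8% lower) and 45.9% in mutants (13.9% higher, 32.1% lower). Cdkn1b, the CDK inhibitor p27, was lower at 3 weeks by 0.45 (adjusted p = 0.0428) and 0.58 (adjusted p = 0.00370). Cdkn1c, its relative p57, was lower in mutants by 0.95, at 2.62 against 5.96 TPM (adjusted p = 0.000101). Gadd45a, a stress-induced inhibitor, was lower by 1.28 in controls (6.57 against 16.8 TPM, adjusted p = 0.00294) and by 0.66 in mutants, the latter call lost with size factors (adjusted p = 0.108). Gadd45g was higher in controls by 0.65 and Cdkn2d in mutants by 0.39.

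Replication genes outside the members mostly had higher means at 3 weeks. In controls 1 of 30 passed, beside 36.1% of all genes (11.3% higher, 24.8% lower). It was Rfc2, a clamp loader subunit, higher by 0.57 (adjusted p = 0.000668). With size factors 10 passed, all higher, beside the share of all genes given above for that scaling. In mutants 6 of 30 passed (5 higher, 1 lower), beside 45.9% of all genes (13.9% higher, 32.1% lower). They were led by the origin recognition subunit Orc6, at 57.1 against 36.7 TPM (0.63, adjusted p = 0.000169), Rfc2 by 0.40 and Rfc5 by 0.64. Rpa1, of the single-strand binding complex, was lower by 0.60. Of other mitosis genes, 6 of 24 passed in controls (3 higher, 3 lower) and 9 of 24 in mutants (6 higher, 3 lower). These counts stood beside the same 36.1% and 45.9% of all genes. Kif22, a chromosome-arm kinesin, was higher by 1.17 and 1.00, and Cenpa, the centromeric histone, by 0.48 and 0.84. Wee1, the kinase that restrains Cdk1, was lower by 0.92 and 0.75, and Smc2, of condensin, by 0.61 in controls.

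Markers of other cells were read in the same comparisons. Of 88 tested markers on 11 lists, 33 passed in controls (20 higher, 13 lower) and 44 in mutants (6 higher, 38 lower). In total these shares were close to the 36.1% and 45.9% of all genes. By direction, 11.3% of all genes were higher and 24.8% lower in controls, so the markers there leaned the other way. In mutants 13.9% of all genes were higher and 32.1% lower. Astrocyte markers were lower, 3 of 8 in controls and 6 of 8 in mutants, and excitatory neuron markers were lower, 5 of 8 and 6 of 8. Hemoglobin genes and Alas2, the markers of blood, were higher, 5 of 5 in controls and 2 of 5 in mutants. Of the lists that hold dividing cells, oligodendrocyte precursor markers passed for 2 of 10 in controls, both higher, and for 3 of 10 in mutants, all lower. Microglial markers passed for 5 of 9 (2 higher, 3 lower) and 6 of 9 (2 higher, 4 lower), and endothelial markers for 2 of 9 (1 higher, 1 lower) and 5 of 9, all lower. In the P209L line itself, 12 of 12 mature oligodendrocyte markers and 10 of 10 precursor markers had lower means than in its 2 controls, with medians of -0.84 and -0.319 on the log2 scale and 0 past the adjusted threshold. The same held for 9 of 9 endothelial, 8 of 8 leptomeningeal fibroblast and 5 of 5 blood markers, with medians of -0.249, -0.431 and -0.678. Over all genes tested the median was 0.0163. On each of these 5 lists P209L control 2 had the highest sum of the 5 mice of 3 weeks. Its mature oligodendrocyte markers summed to 6538 TPM and its blood markers to 4884 TPM, beside 4377 and 2572 TPM in P209L control 1. The part of the markers in the member values was not tested.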

How the data were processed

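RNA from the cortex of 17 mice in 6 groups was sequenced. Per the labels, total RNA libraries were made with a stranded TruSeq kit. The submitters' processing notes name Trim Galore, STAR 2.7.1a, GATK 4.0.4.0, RSEM and the build mm10; the annotation and the strand setting are not given in the sources used here. The authors deposited TPM by gene symbol, rounded to 2 decimals, and each mouse sums to about 1000000, so no depth or counting error can be given.

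Repeated symbols were summed. Genes with a mean of at least 1 TPM over 17 mice (16265) were tested as log2(TPM + 1) with limma 3.58.1 in R 4.3.3 (group means, eBayes with trend=TRUE, two-sided) and adjusted by Benjamini-Hochberg over all genes of a contrast, threshold 0.05. Fold changes on this scale understate those of low genes. Intervals are at 95% and unadjusted. Exact permutation tests of TPM (two-sided, scipy 1.17.1) were run for members with an unadjusted p under 0.05. On simulated data, the limma step for 3 KO against 3 KO control mice recovered 85% of 100 genes changed by a log2 of 1 among 16265. Those genes, and 100 more changed by a log2 of 2, all had a mean log2(TPM + 1) above 3. Most members do not reach that level, so the share recovered does not describe them. With that many genes changed, the adjusted threshold was looser than in the real KO comparison, where 0.00615% of genes passed. Values were also drawn independently, without a shift of a whole mouse such as KO control 1. The share recovered can therefore overstate the power of the real comparison. The P209L comparison with its controls was not simulated. Members, lists and tests were chosen with earlier results of these data known. All 40 members are named; genes of the other pathway lists were named from the up to 5 with the smallest p past the threshold. Gene positions are from GENCODE M21 by symbol, promoters from RefSeq. Alternatives were other pseudocounts, filters, scalings, variance models, a replicate block and leaving out each mouse. Columns of other samples: 0.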

Additional observations from a re-analysis of the deposited data

Results flagged for a closer look

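Among 80 sets of 6 values (40 members in the controls and in the mutants of 8 weeks), 6 had an end value whose gap to the next, as a share of the whole range, exceeded Dixon's 95% limit of 0.625; chance alone gives about 1 in 20. KO control 1 was the low value in 4 of them, E2f1 (0.754), Mcm5 (0.690), Birc5 (0.677) and Racgap1 (0.655), at 7.65, 1.89, 0.54 and 4.72 TPM. The same mouse had the highest mitochondrial share, 20.1%, whose part in these values was not tested. R206W control 3 was high for Cenpf (0.768), at 0.71 TPM, and KO 3 for Plk1 (0.635), at 1.61 TPM.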

How the results depend on the processing

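The counts of members past the threshold in the 3 mutant lines, between the 8-week controls and for the differences between effects were 0 in all 29 alternatives. Between ages in controls the main count of 4 became 1 with a minimum mean of 5 TPM (5 members tested), 2 with only the compared groups in the fit, and 7 (1 higher, 6 lower) with sample weights, the lowest weight being 0.0744, of KO control 1, and the highest 3.86, of KO control 2. Leaving out each mouse in turn gave 1 to 7 in controls, with 7 without KO control 1, 2 without P209L control 1 and 1 without P209L control 2, where the lone 3-week control is assumed to vary like the other groups; it gave 6 to 8 in mutants. In mutants the main count of 6 became 2 with a minimum mean of 5 TPM. The fewer members tested account for the counts at 5 TPM. For the other settings the cause was not tested. The share of all genes passing in each of these fits is not given here, so a changed count cannot be read as a result about the members. None of the 16 single-gene age changes recomputed reversed, whereas the sign of the members' median between ages depended on the scaling. In mutants, Ccna2, Mcm2, Mcm4 and Mcm5 passed in all 30 alternatives; in controls Mcm4 was lost in 4 of 30.

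The replicate numbers did not pair the mice: same-numbered deviations correlated at -0.0581 to 0.331 in KO, -0.113 to -0.0283 in R206W and 0.00276 to 0.0814 in P209L. With the replicate number as a block, the counts were 3 in controls by age (Bub1b lost, adjusted p = 0.0530), 8 in mutants by age and 0 elsewhere. The share of all genes passing with the block is not given here either. TPM holds no depth, and most late genes lie near or below 1 TPM, where the pseudocount compresses changes.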
